A study of Homo sapiens with 6 samples.

Results

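Cytosolic ribosomal proteins were followed here in ZR-75-1, an oestrogen receptor-positive breast cancer cell line, after treatment with the CDK4/6 inhibitor abemaciclib. The members are the protein-coding genes named RPLP0 to RPLP2, RPSA, or RPL or RPS followed by a number and, in some, A, X or L. A further number may follow, as in RPL22L1. RPL symbols with both A and L, such as RPL36AL, fall outside the rule, as do the RPS6K kinase genes. The members numbered 84 of the 60656 genes in the count table, 52 of the large subunit and 32 of the small subunit. The study asked how the retinoblastoma protein acts on chromatin and transcription once CDK4/6 is inhibited, and the RNA comparison used here was abemaciclib against its vehicle. All 6 libraries came from the parental line and none from the RB1 knockout cells of the study. DMSO was given to 3 cultures and 500 nM abemaciclib to 3, in each case for 4 days. Each library is a 3′ mRNA library, in which a read marks the end of a polyadenylated transcript and a transcript counts once whatever its length.

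A ribosome is built from ribosomal RNA and ribosomal proteins that cells make in matched amounts, the large subunit holding the peptidyl transferase centre and the exit tunnel and the small subunit reading the mRNA. Messenger RNAs of ribosomal proteins are among the most abundant of a growing cell and usually begin with a cytosine and a run of pyrimidines, the 5′ terminal oligopyrimidine (TOP) motif, through which mTORC1 and LARP1 control their translation and stability. Beyond the ribosome, a few of these proteins, RPL5 and RPL11 among them, bind MDM2 and so touch the p53 pathway.

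The first bases of the mRNAs are shown for the genes called in either direction that have a listed start, and for RPLP0, RPLP1 and RPS6 beside them, since they show which transcripts carry a TOP start. Each sequence has 30 bases, 10 before and 20 from the RefSeq start (build GRCh38.p14), 5′ to 3′ on the strand of the gene. Where there is a TOP start, the run of C and T that opens it is in capitals.
RPL22 (chr1:6199576-6199605, minus strand): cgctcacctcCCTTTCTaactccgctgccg
RPL10A (chr6:35468391-35468420, plus strand): aagacatgctagtctcttttccggttagcg
RPS4X (chrX:72277229-72277258, minus strand): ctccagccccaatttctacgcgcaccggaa
RPS27L (chr15:63157458-63157487, minus strand): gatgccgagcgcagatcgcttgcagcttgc
RPS27 (chr1:153990752-153990781, plus strand): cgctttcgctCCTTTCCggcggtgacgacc
RPS29 (chr14:49598691-49598720, minus strand): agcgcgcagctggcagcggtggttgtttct
RPLP2 (chr11:809957-809986, plus strand): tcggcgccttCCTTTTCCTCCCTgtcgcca
RPLP0 (chr12:120201092-120201121, minus strand): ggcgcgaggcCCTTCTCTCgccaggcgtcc
RPLP1 (chr15:69452808-69452837, plus strand): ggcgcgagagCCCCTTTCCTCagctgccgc
RPS16 (chr19:39435930-39435959, minus strand): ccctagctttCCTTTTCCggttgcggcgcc
RPS19 (chr19:41860245-41860274, plus strand): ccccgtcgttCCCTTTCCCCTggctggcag
RPS15 (chr19:1438386-1438415, plus strand): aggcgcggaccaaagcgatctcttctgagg
RPS21 (chr20:62387093-62387122, plus strand): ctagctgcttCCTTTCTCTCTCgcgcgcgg
RPS6 (chr9:19380217-19380246, minus strand): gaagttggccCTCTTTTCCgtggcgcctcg
A TOP start was taken as a C at the annotated start followed by 4 letters that are each C or T, searched on the strand of the gene only. It was found in 47 of the 67 members with a listed start (70.1%), in 1357 of the 27238 other genes with one (5.0%) and in 620 of the 8524 other genes that were tested (7.3%). RPS27 and RPS27L, a pair of paralogues, differ here: RPS27 has a run of 7 pyrimidines and RPS27L has none at the listed start. RPL10A, RPS4X, RPS29 and RPS15 have no TOP start at this base either. The annotated start can lie some bases from the one used in these cells.

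The libraries held 3317860 to 4013156 counts, and a count of 0 allows up to 0.74 to 0.909 CPM (counts relative to library size, scaled by TMM), a limit that covers counting error only. Of 7 luminal markers all were detected, among them ESR1 and GATA3, whereas the basal markers KRT5, KRT14 and TP63 and the leucocyte marker PTPRC were at 0 in every library, as were CD3E, PECAM1 and COL1A2. DCN, CD68 and VWF averaged 0.05, 0.05 and 0.54 CPM, and the fibroblast marker COL1A1 averaged 12.8 CPM. The proliferation marker MKI67 was at 526 ± 31.4 CPM with DMSO and 5 ± 2.28 CPM with abemaciclib (SD, n = 3). Abemaciclib replicate 3 stood apart from its group: the chi-square per degree of freedom between libraries was 6.82 and 7.27 for its pairs and 2.82 to 4.16 for the other 4 pairs within groups. It was the highest of its group for 56 of the 79 members tested, a count not made over all genes. The main counts of calls are therefore also given without this library. The 3 libraries of a group were described by the study as biological replicates.

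Most ribosomal protein genes were close to their DMSO level after abemaciclib. RPS27L fell the most, RPS29 and RPLP2 followed, and RPL22, RPS4X and RPL10A rose. Calls come from edgeR's quasi-likelihood test of abemaciclib against DMSO, in which p-values were adjusted by the Benjamini–Hochberg method over the 10863 genes that passed a filter on low counts, at a threshold of 0.05. Fold changes are given with ± SE. Of the 79 members that passed the filter, 3 were higher (3.8%, against 12.5% of all genes tested), 11 were lower (13.9%, against 13.3%) and 65 were not called. The share lower is near that of all genes, and the share higher is below it, though this gap itself got no test. Without abemaciclib replicate 3, 3 of 79 members were higher and 18 lower, against 1412 and 1529 of the 11218 genes then tested. The lower members numbered 7 without DMSO replicate 1 (against 1194 of 11185 genes tested) and 6 without DMSO replicate 2 (against 1132 of 11233). The higher members numbered 7 without abemaciclib replicate 1 (against 1166 of 11272 genes tested) and 5 without replicate 2 (against 1072 of 11172). The median log2 fold change was -0.03 over the members tested, with quartiles of -0.14 and 0.13, and -0.002 over all genes tested. Among the 5 members not tested were RPL3L, RPL10L, RPL39L and RPL17.

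Most differences were small. The log2 fold change lay within 0.25 of 0 for 61 members (77.2%) and within 0.5 for 76 (96.2%), whereas among the 1650 other genes that averaged 100 CPM or more these shares were 50.1% and 79.5%. These other genes were not matched to the members on abundance, and the part of counting error in the spread was not tested. Of the 74 members at that abundance, 3 were higher (4.05%, against 23.2% of the 1724 genes at that level) and 11 were lower (14.9%, against 18.6%). In 9 members (11.4%, against 19.1% of all genes tested) all 3 abemaciclib libraries were above the 3 DMSO libraries, and in 17 (21.5%, against 20.1%) all were below. Only RPS27L among the members tested moved by more than 1 on the log2 scale.

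**Figure D1:**
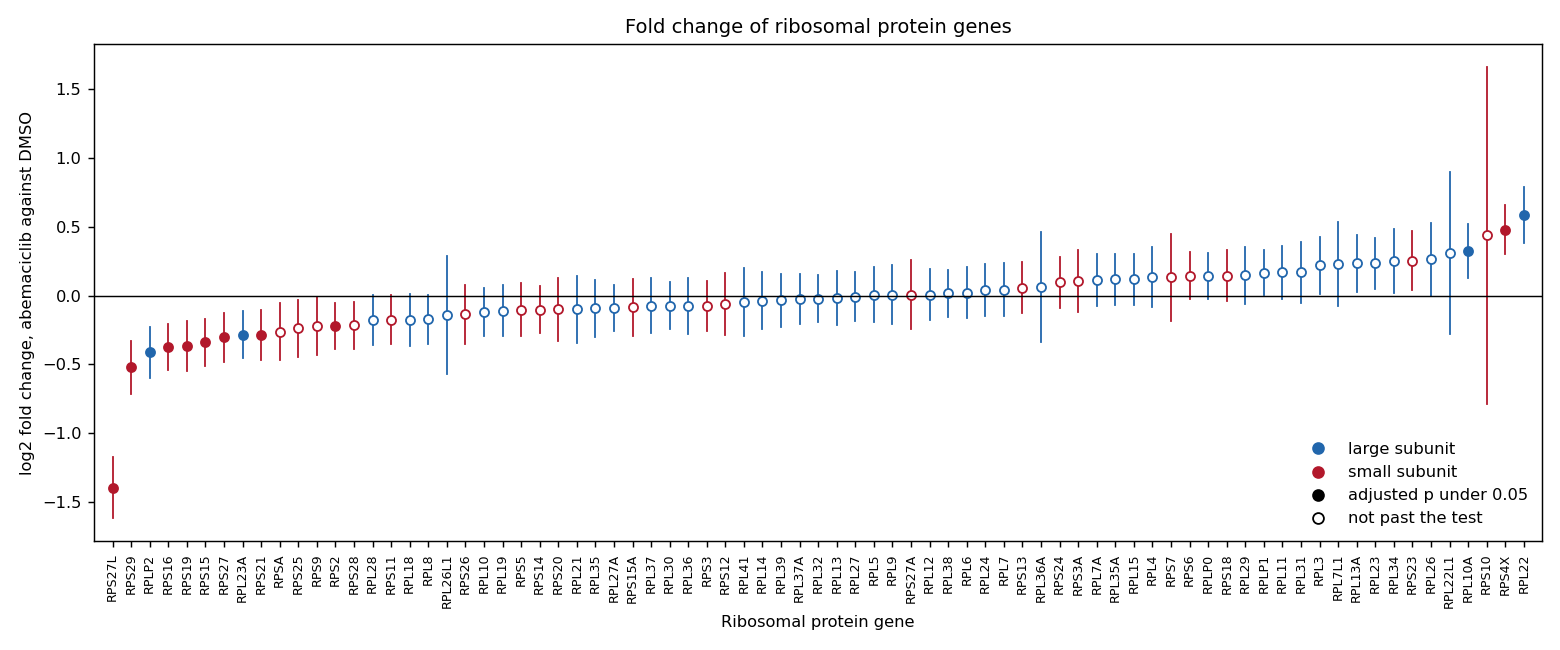
Log2 fold change (abemaciclib against DMSO) of 77 ribosomal protein genes, ordered by size, with lines for the 95% confidence interval, blue for the large and red for the small subunit, and filled points for an adjusted p under 0.05. RPS27L lies apart at -1.40, 3 filled points are above 0 and 10 below. The plot leaves out 2 genes that were tested, 1 of them called lower, which are not reported here.

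**Figure D2:**
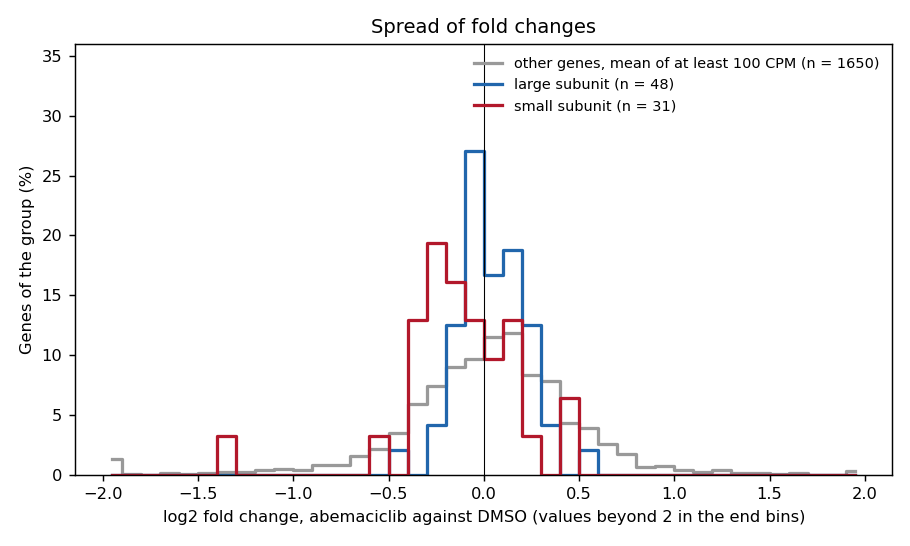
Share of genes (%) by log2 fold change in bins of 0.1 for the 48 large subunit genes, the 31 small subunit genes and 1650 other genes that averaged 100 CPM or more. The ribosomal curves are narrower than the grey curve, and the red curve for the small subunit lies to the left of the blue.

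More small than large subunit genes were lower. Of 48 large subunit genes tested, 2 were higher (4.17%, against 12.5% of all genes tested) and 3 lower (6.25%, against 13.3%). Their median log2 fold change was 0.007 and lay between -0.03, without abemaciclib replicate 3, and 0.04 over the 14 alternatives, being -0.009 with total counts as the only scaling. Of 31 small subunit genes, 1 was higher (3.23%, against 12.5%) and 8 were lower (25.8%, against 13.3%), with a median of -0.10 that stayed below 0 in all 14 alternatives to the main settings. Without abemaciclib replicate 3, lower calls were 5 of 48 large and 13 of 31 small subunit genes (against 1529 of 11218 genes tested). Without DMSO replicate 1 they were 1 and 6 (against 1194 of 11185), and without DMSO replicate 2, 1 and 5 (against 1132 of 11233). The difference between the subunits was not tested.

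RPS27L was the member with the largest change. RPS27L (chr15:63125872-63158021, GRCh38), a paralogue of RPS27 known as a p53 target, had 449, 503 and 573 CPM with DMSO and 195, 214 and 169 CPM with abemaciclib. Every abemaciclib library was below every DMSO library. The level fell from 508 ± 61.9 to 193 ± 22.4 CPM (SD, n = 3) by 1.40 ± 0.11 in log2 units (SE; adjusted p = 3.47e-11, edgeR's quasi-likelihood test), and the highest adjusted p over the 14 alternatives was 2.44e-08. The last 300 bases of RPS27L had no match of at least 90% elsewhere in the genome, and no pseudogene of it is annotated.

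RPS27 (chr1:153990762-153992155), its partner in the same place on the small subunit, had 1099.6, 1182 and 1104 CPM with DMSO and 959, 926 and 863 CPM with abemaciclib. The groups did not overlap, and RPS27 fell from 1129 ± 46.4 to 916 ± 48.8 CPM (SD, n = 3; log2 fold change -0.30 ± 0.09, adjusted p = 0.0105). As a share of the counts on both genes, RPS27L held 29.0%, 29.9% and 34.2% with DMSO and 16.9%, 18.8% and 16.4% with abemaciclib, a mean of 31.0% ± 2.76 and 17.4% ± 1.25 (SD, n = 3). Both paralogues were lower, and the share of RPS27L was lower in each of the 3 abemaciclib libraries than in each DMSO library. RPS27 also has 30 annotated pseudogenes that held a mean of 1692 counts with DMSO beside its own 3806. Its call was lost without DMSO replicate 2 (adjusted p = 0.0833, with a range of 0.00156 to 0.0833 over the alternatives).

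The other paralogues tested did not pass the test. RPL22L1, the paralogue of RPL22, had 11, 13.7 and 9.09 CPM with DMSO and 13.6, 10.9 and 17.6 CPM with abemaciclib (log2 fold change 0.31 ± 0.29, adjusted p = 0.477). RPL7L1 had 48.7, 56.1 and 73.3 CPM with DMSO and 72.6, 70.8 and 65.1 CPM with abemaciclib (log2 fold change 0.23 ± 0.15, adjusted p = 0.287). RPL26L1 had 24.9, 24.7 and 40.6 CPM with DMSO and 30.6, 23.9 and 27.3 CPM with abemaciclib (log2 fold change -0.14 ± 0.21, adjusted p = 0.677). RPL3L, RPL10L and RPL39L, which are tissue-restricted paralogues, had 0 counts in every library.

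Of the small subunit, RPS29, a zinc-binding protein near the decoding centre, was the next. RPS29 (chr14:49570984-49599164) had 5830.2, 5095 and 5036 CPM with DMSO and 3555, 3267 and 4291 CPM with abemaciclib, and every abemaciclib library lay below the DMSO libraries. RPS29 fell from 5320.4 ± 443 to 3704 ± 528 CPM (SD, n = 3; log2 fold change -0.52 ± 0.09, adjusted p = 9.25e-05). Its 32 annotated pseudogenes held a mean of 5 counts with DMSO.

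RPS16, whose tail reaches the tRNA in the P site, fell from 2383 ± 68.3 to 1839 ± 81 CPM (SD, n = 3; log2 fold change -0.37 ± 0.08, adjusted p = 0.00102). RPS19, which is needed to mature the 18S rRNA and is mutated in Diamond–Blackfan anaemia, had 2715, 2491 and 2619 CPM with DMSO and 1901, 1909.8 and 2264 CPM with abemaciclib (log2 fold change -0.36 ± 0.09, adjusted p = 0.00233). RPS15, at the head of the subunit near the A site, had 2174, 2084 and 2172 CPM with DMSO and 1822, 1594 and 1664 CPM with abemaciclib (log2 fold change -0.34 ± 0.08, adjusted p = 0.00318). In each of these genes the 3 abemaciclib libraries were below the 3 DMSO libraries. Pseudogenes held 28.4% of the summed counts of gene and pseudogenes for RPS19 and 35.7% for RPS15 with DMSO, and RPS16 had none with counts.

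RPS21, a small subunit protein, fell from 2381 ± 146 to 1957 ± 195 CPM (SD, n = 3; log2 fold change -0.28 ± 0.09, adjusted p = 0.018), a call lost without DMSO replicate 1 or 2 or abemaciclib replicate 2. RPS2, at the mRNA entry, had 2763, 2590.3 and 2757 CPM with DMSO and 2302, 2198 and 2462 CPM with abemaciclib (log2 fold change -0.22 ± 0.08, adjusted p = 0.0496). Its call is at the threshold and was lost in 8 of the 14 alternatives, with adjusted p from 0.00295 to 0.182.

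Among the lower genes of the large subunit were RPLP2 and RPL23A. RPLP2 (chr11:809965-812880), an acidic protein of the P stalk that recruits elongation factors, had 701, 647 and 632 CPM with DMSO and 505, 470.0 and 516 CPM with abemaciclib. It fell from 660.1 ± 36.4 to 497 ± 23.8 CPM (SD, n = 3; log2 fold change -0.41 ± 0.09, adjusted p = 0.00104) and the groups did not overlap. The other 2 P stalk genes did not pass the test: RPLP0, the stalk base, had 2424, 2337 and 2320.2 CPM with DMSO and 2589, 2476 and 2757 CPM with abemaciclib (log2 fold change 0.14 ± 0.08, adjusted p = 0.214), and RPLP1 had 2386, 2304 and 2439.8 CPM with DMSO and 2599, 2725 and 2682 CPM with abemaciclib (log2 fold change 0.17 ± 0.08, adjusted p = 0.133). RPLP1 passed with DESeq2 (adjusted p = 0.0419, log2 fold change 0.17). In RPLP0 and RPLP1 all 3 abemaciclib libraries exceeded the DMSO libraries, and in RPLP2 all 3 were below them.

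RPL23A, at the rim of the exit tunnel where the signal recognition particle docks, fell from 3009 ± 209 to 2474 ± 88.3 CPM (SD, n = 3; log2 fold change -0.28 ± 0.08, adjusted p = 0.0122), a call lost without DMSO replicate 1 (adjusted p = 0.0935) or 2. TLCD1, on the opposite strand at its 3′ end, held a mean of 39.5 counts where RPL23A held 9121 or more in each group.

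**Figure D3:**
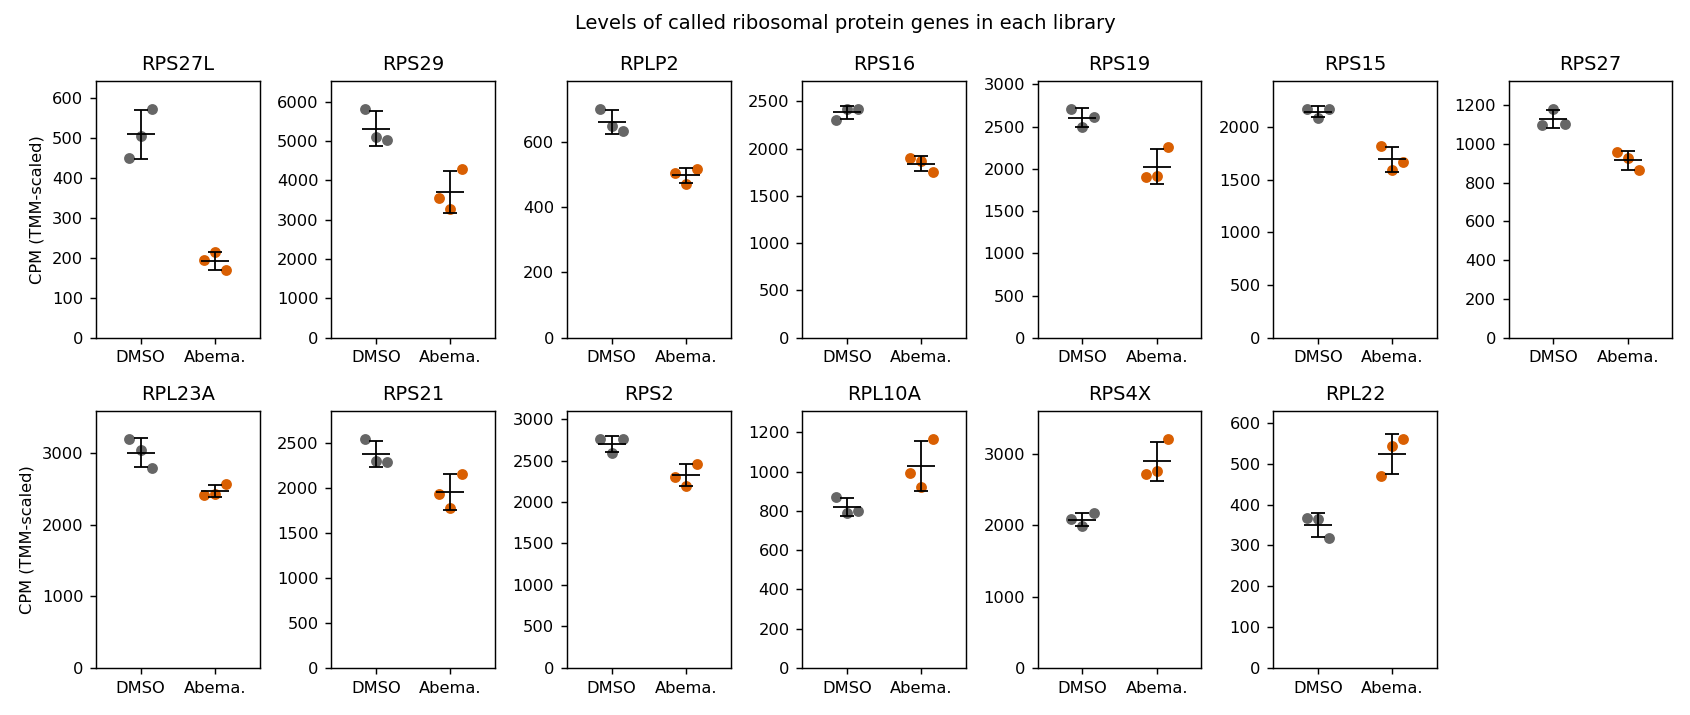
TMM-scaled CPM of 13 called genes in each library, with the mean and SD of the 3 libraries of each group, on axes that start at 0. The plot leaves out 1 called gene that is not reported here. RPS27L is lower in all 3 abemaciclib libraries, at 169 to 214 CPM against 449 to 573 with DMSO, and RPL22, RPS4X and RPL10A are higher.

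The genes that rose were RPL22, RPS4X and RPL10A. RPL22 (chr1:6185020-6209389), a protein on the outer face of the large subunit, had 368, 364 and 317 CPM with DMSO and 469, 543 and 561 CPM with abemaciclib. It rose from 349.9 ± 28.4 to 525 ± 48.9 CPM (SD, n = 3; log2 fold change 0.58 ± 0.10, adjusted p = 4.02e-05), with no overlap between groups. RPS4X (chrX:72255679-72277248), the X-linked small subunit protein eS4, had 2083, 1982 and 2170.2 CPM with DMSO and 2723, 2756 and 3211 CPM with abemaciclib (log2 fold change 0.48 ± 0.09, adjusted p = 0.000107). The abemaciclib libraries were all above the DMSO libraries. RPL10A, the protein of the L1 stalk that meets tRNA leaving the ribosome, had 873, 791 and 799 CPM with DMSO and 994, 921 and 1168 CPM with abemaciclib (log2 fold change 0.32 ± 0.10, adjusted p = 0.0116), a call lost without DMSO replicate 2 (adjusted p = 0.0844) or 3. Neither the last 300 bases of RPL22 nor those of RPS4X matched elsewhere in the genome at 98% or more. Those of RPL10A did at 1 place, and its pseudogenes held 14.2% of the summed counts with DMSO.

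Genes with the highest counts were mostly not called. Among those with the highest mean count were RPS29, RPS28, RPL27A and RPS12. RPS28, on the exit side of the mRNA, had 4776, 4642 and 5116 CPM with DMSO and 4513, 4114 and 3889.5 CPM with abemaciclib (log2 fold change -0.22 ± 0.08, adjusted p = 0.0543), just outside the threshold, with all abemaciclib libraries lower than all DMSO libraries, and it passed with DESeq2, with total counts as the only scaling, with pseudogene counts added and without abemaciclib replicate 1. The log2 fold change of RPL27A was -0.09 ± 0.08 (adjusted p = 0.473) and that of RPS12 was -0.06 ± 0.11 (adjusted p = 0.745).

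RPS6, the target of the S6 kinases, had 2169.5, 2133 and 2100.0 CPM with DMSO and 2274, 2256 and 2538 CPM with abemaciclib, which did not pass the test (log2 fold change 0.14 ± 0.08, adjusted p = 0.224) although the groups do not overlap. The 5S RNP proteins RPL5 and RPL11, which with 5S rRNA can bind MDM2, did not pass it either: RPL5 had 559, 512 and 562 CPM with DMSO and 487, 525 and 628 CPM with abemaciclib (log2 fold change 0.01 ± 0.10, adjusted p = 0.972), and RPL11 had 1001, 963 and 936 CPM with DMSO and 1007, 1003 and 1249.7 CPM with abemaciclib (log2 fold change 0.17 ± 0.09, adjusted p = 0.202). The interval of the RPL5 change reached from -0.20 to 0.21. Of the 5 proteins at the mRNA entry, decoding site and head, RPS2 and RPS15 were lower and 3 were not called. The lower share was 40.0%, against 13.3% of all genes tested. Of the 4 on the mRNA exit side, RPS26, RPS28, RPSA and RPS14, 0 were called by edgeR at the adjusted threshold. At an unadjusted p under 0.05, 2 were lower (against 1986 of the 10863 genes tested). With DESeq2 1 was lower (against 1165 of 20429). With total counts as the only scaling, and with pseudogene counts added, 2 were lower, the most in any alternative. Over all genes, 1506 of 10863 and 1447 of 10768 were lower in these settings. RPSA had 492, 449 and 427 CPM with DMSO and 369, 336 and 435 CPM with abemaciclib (log2 fold change -0.26 ± 0.10, adjusted p = 0.0565), and it passed in 4 of the 14 alternatives, with adjusted p from 0.000696, without abemaciclib replicate 3, to 0.298. All 4 genes had negative values, as had 5450 of the 10863 genes tested.

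As a share of all counts, the members held 10.2%, 9.81% and 9.86% with DMSO and 9.24%, 9.11% and 9.92% with abemaciclib. The means were 9.94% ± 0.19 and 9.42% ± 0.44 (SD, n = 3), and the ranges overlap through abemaciclib replicate 3. The small subunit held 5.26%, 5.06% and 5.06% against 4.55%, 4.41% and 4.87%, a mean of 5.13% ± 0.11 against 4.61% ± 0.23, with no overlap. The large subunit held a mean of 4.82% ± 0.08 with DMSO and 4.81% ± 0.21 with abemaciclib. The difference between the means was -0.52 percentage points for all members, -0.515 for the small subunit and -0.005 for the large. Mitochondrially encoded mRNAs held 7.53%, 6.94% and 6.67% with DMSO and 6.77%, 6.04% and 7.96% with abemaciclib, also highest in abemaciclib replicate 3. Mitochondrial rRNA held 8.83% ± 0.37 with DMSO and 9.68% ± 0.33 with abemaciclib (SD, n = 3). With mitochondrial genes left out of the total, the members held 11.848% ± 0.293 and 11.345% ± 0.70, a difference of -0.503 percentage points. The part of the mitochondrial counts in the result was not tested further. Sequencing counts give shares of the library, so fewer ribosomal transcripts per cell cannot be told apart from a change in the rest of the mRNA.

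**Figure D4:**
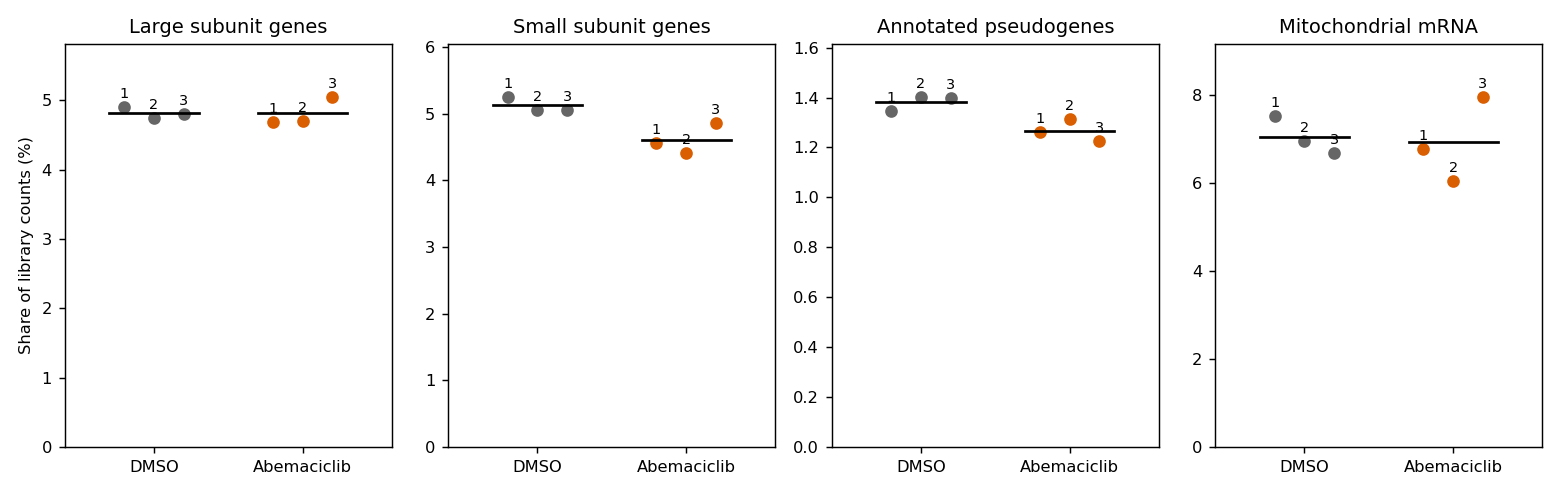
Share of library counts (%) held by large subunit genes, small subunit genes, annotated ribosomal protein pseudogenes and mitochondrially encoded mRNAs, with replicate numbers beside the points and lines at the group means. The small subunit share is 4.41% to 4.87% with abemaciclib and 5.06% to 5.26% with DMSO, and abemaciclib replicate 3 is the highest of its group in every panel but that of the pseudogenes.

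Pseudogenes take a part of the counts. Pseudogenes named after a member are annotated for 78 of the members, 1599 in all, and 478 of these held counts. They held 1.38% ± 0.03 of the counts with DMSO and 1.27% ± 0.04 with abemaciclib (SD, n = 3). RPL36A had a mean of 122 counts with DMSO where its pseudogenes had 3705, nearly all on RPL36AP37. RPL17, left untested at 2 to 8 counts, had a pseudogene mean of 881 counts. RPL17 also shares its 3′ end with another annotated gene on the same strand, as RPS10 does with RPS10-NUDT3, and these overlapping genes held 0 counts. These genes are uncertain, and how reads that match several places were counted is not given in the sources used here.

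With the pseudogene counts added to their genes, 3 members were higher and 13 lower of 80 tested, against 1347 and 1447 of 10768 genes. The median log2 fold change of the members was then -0.03. In 40 members with a mean of at least 100 counts on the gene and on its pseudogenes, the ratio of abemaciclib to DMSO had the same sign on both in 34. The log2 ratios of gene and pseudogenes had Pearson's r = 0.74 and Spearman's rho = 0.75 across these 40 genes, which share libraries and are not independent. Matches of at least 98% over at least 100 bases elsewhere were found for the last 300 bases of 27 members. Of the 25 tested, 1 was higher and 4 were lower, and of the other 54, 2 were higher and 7 lower. Over all genes tested, 12.5% were higher and 13.3% lower, and these sets were not compared by a test.

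The members were also split by their TOP start. Of the 47 with one, all tested, 1 was higher (2.13%, against 12.5% of all genes tested) and 5 were lower (10.6%, against 13.3%), with a median log2 fold change of 0.01. Of the 20 without one, 18 were tested, 2 were higher (11.1%) and 3 were lower (16.7%), with a median of 0.00. The split rests on the exact annotated base, which can lie some bases from the start used in these cells.

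The genes that work beside ribosomal proteins were read in the same test. Ribosomal proteins under other symbols, among them FAU (eS30 fused to a ubiquitin-like protein), RPL36AL and RACK1 (a scaffold on the small subunit), gave 0 calls, 0 at an unadjusted p under 0.05 and 0 with DESeq2, with log2 fold changes of -0.002 for FAU, 0.10 for RPL36AL and -0.03 for RACK1. Elongation factors and other mRNAs with known TOP starts gave 5 higher and 3 lower of 17 tested (29.4% and 17.6%, against 12.5% and 13.3% of all genes tested), with a median of 0.11. EEF2, which moves the ribosome along the mRNA, had 2662, 2468 and 2502 CPM with DMSO and 3344, 3111 and 3775 CPM with abemaciclib (log2 fold change 0.42 ± 0.09, adjusted p = 0.000454). Among the genes of initiation factors, EIF2S3 (log2 fold change 0.41 ± 0.11, adjusted p = 0.00495) and EIF3F (log2 fold change 0.47 ± 0.14, adjusted p = 0.0154) were called higher with EIF3H, and the call of EIF3F was lost in 2 of the 14 alternatives. EIF4B, EIF3E, EIF3K and EIF4E did not pass, with log2 fold changes of 0.22, 0.28, -0.27 and -0.14. Without DMSO replicate 2 the list had 3 higher genes, against 981 of 11233 genes tested. It had 5 lower without abemaciclib replicate 3, against 1529 of 11218.

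In the same list HNRNPA1, a splicing factor, had 257, 247 and 275 CPM with DMSO and 177, 169 and 183 CPM with abemaciclib (log2 fold change -0.56 ± 0.10, adjusted p = 8.84e-05). NPM1, the nucleolar chaperone nucleophosmin, fell from 528 ± 21.4 to 394 ± 54.9 CPM (SD, n = 3; log2 fold change -0.42 ± 0.10, adjusted p = 0.00203). EEF1D, of the EEF1 exchange complex, was lower (log2 fold change -0.39 ± 0.13, adjusted p = 0.0255), but its groups overlap and 5 of the 14 alternatives lost the call. Of the 15 chaperones, importers and quality control factors of ribosomal proteins, BCCIP, the chaperone of RPL23, was the only one called (log2 fold change -0.36 ± 0.14, adjusted p = 0.0495), and 6 of the 14 alternatives lost it. The 1 lower gene is 6.67% of the list, against 13.3% of all genes tested. The list had 0 higher genes by edgeR and DESeq2 and 4 at an unadjusted p under 0.05 (edgeR, against 1940 of 10863). It had 2 higher without abemaciclib replicate 3, against 1412 of 11218 genes tested. Of the 14 regulators of TOP mRNAs, TIAL1, an RNA-binding protein that holds TOP mRNAs back in starved cells, was the only one called, with 49.6, 57 and 50 CPM with DMSO and 83.2, 73 and 83.2 CPM with abemaciclib (log2 fold change 0.61 ± 0.14, adjusted p = 0.0012). This 1 higher gene is 7.14% of the regulators, against 12.5% of all genes tested. LARP1 (log2 fold change 0.17 ± 0.10, adjusted p = 0.212) and MTOR (log2 fold change 0.24 ± 0.21, adjusted p = 0.447) did not pass.

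The members shared a pattern in the spread among libraries, which was not theirs alone. Per library, the median log2 difference of the members from the DMSO mean was 0.04, -0.03 and -0.02 with DMSO and -0.04, -0.10 and 0.14 with abemaciclib. Elongation factors and other TOP mRNAs had 0.066, -0.048 and -0.049 with DMSO and 0.045, -0.046 and 0.298 with abemaciclib. Over all genes tested the values lay between 0.002 and 0.012. Abemaciclib replicate 3 was above the mean of the other two in 61 of 79 members, with a median of 0.15, and DMSO replicate 1 in 55, with a median of 0.06. Both were compared after their values were seen. RPS7 (0.78 and 0.42), RPL26 (0.66 and 0.29) and RPS27A (0.63 and 0.33) had the highest values for abemaciclib replicate 3, each given with that of DMSO replicate 1, and RPL41 (-0.55 and -0.34) had the lowest. Across the 79 members the deviations had Pearson's r = 0.77 and Spearman's rho = 0.76, and across the 1647 other genes at 100 CPM or more r = 0.49 and rho = 0.48. Genes are not independent replicates, and the values of each axis share a library. The GC content of the last 300 bases had r = -0.18 with the deviation of abemaciclib replicate 3 and -0.01 with that of DMSO replicate 1 over the members, and -0.41 and -0.23 over those other genes. GC content and the log2 fold change had r = -0.16 and rho = -0.34 over the members. Over those other genes the values were 0.01 and -0.01. The part of GC content in the counts was not tested. In the 40 members with pseudogene counts, abemaciclib replicate 3 was above its group in 35 on the gene and in 19 on the pseudogenes.

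With abemaciclib replicate 3 left out, the median log2 fold change of the members was -0.09. RPS27A, a ubiquitin fusion, then fell by 0.23 on the log2 scale (edgeR, adjusted p = 0.0189). With all libraries its log2 fold change was 0.007 (adjusted p = 0.975), and its adjusted p ranged from 0.0189 to 0.998 over the alternatives. Of the 14 called members, 8 kept their call in all 14 alternatives: RPL22, RPS4X, RPS27L, RPS29, RPLP2, RPS16, RPS19 and RPS15. No such count was made over all genes called, and the alternatives share libraries.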

How the data were processed

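The 6 libraries, of parental ZR-75-1, were grouped by the treatment in their labels, 3 with DMSO and 3 with abemaciclib. The authors trimmed the reads (BBDuk), ran STAR 2.7.5b against hg38 and made counts per gene with featureCounts 2.0.1 on a GENCODE annotation, and these raw counts were deposited without normalization. Whether counting used strand, and how reads with several matches were treated, is not given in the sources used here. Symbols and coordinates come from a later GENCODE release on GRCh38, and 60401 of 60656 identifiers matched.

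Fold changes come from edgeR 4.0.16 under R 4.3.3 (filter by filterByExpr, scaling by TMM, glmQLFit and glmQLFTest, Benjamini–Hochberg adjustment, threshold 0.05), tested first on simulated counts. The SE is the fold change divided by the square root of F. The last 300 transcript bases were aligned to the genome with blastn 2.17.0. Sequences are from RefSeq.

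The members and lists were chosen with earlier results of these data known. Genes named with values are up to 8 called members each way, the 5 with the highest mean CPM, the P stalk, 5S RNP and paralogue genes, RPS6, ribosomal proteins under other symbols, and up to 3 called genes each way of the other lists. The smallest 3 of the 11 falls, LARP1, MTOR, RPSA, RPS7, RPL26, RPS27A, RPL41, EIF3H, EIF4B, EIF4E, EIF3E and EIF3K, and genes with many pseudogene counts, were named after their values were seen. Alternatives were DESeq2 1.42.0 and its size factors, total counts, TMM without these genes, no filter, at least 10 counts in every library, a replicate block, pseudogene counts added, and each library left out. For the share of counts, mitochondrial genes were also left out of the total. The correlations across genes and the comparison of single libraries were chosen after the data were seen. Some genes these rules select are not reported here. Other cell lines, knockout cells and chromatin data were not used here.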

Additional observations from a re-analysis of the deposited data

How the results depend on the processing

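The number of members higher was 3 and became 5 with DESeq2 and 8 when low counts were not filtered, and it was between 2 and 7 with 1 library left out. The number lower was 11 and was between 6 and 18 with 1 library left out. Over all genes, 1354 of 10863 were higher, 1069 of 20429 with DESeq2 and 1335 of 20429 without the filter. With 1 library left out, 981 to 1412 of all genes were higher and 1132 to 1529 lower. RPS27A, which was not called, had a log2 fold change of 0.007 and fell by 0.231 without abemaciclib replicate 3, and with 1 library left out its values lay between -0.231 and 0.123. The cause was not tested for any of these. Over the alternatives the median of the members lay between -0.085, without abemaciclib replicate 3, and 0.024, without abemaciclib replicate 2. The difference in their share of counts stayed within 1 SD of the abemaciclib replicates of its main value in every run. For runs with 1 library left out this limit could not be passed, so it does not measure stability. Same-numbered libraries had correlations of -0.042, 0.007 and -0.088 between their deviations from the group means, so the numbers were not taken to pair the samples. With the replicate block 3 members were higher and 9 lower, all 12 of them called without it. Over all genes, 1139 of 10863 were then higher and 1280 lower. At this depth the smallest change called was that of RPS2, at -0.22 on the log2 scale, and RPL17 had too few counts to be tested.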
